A study of Homo sapiens with 18 samples.

Results

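The histone genes that lie in clusters, named HIST1H to HIST4H in the older nomenclature, were followed through OTX015 treatment of 2 triple-negative breast cancer cell lines. Members were all probes whose gene symbol or older alias begins with HIST1H, HIST2H, HIST3H or HIST4H, a rule that uses no measured value. It found 80 of the 47231 probes of the array and 70 of its 20046 named genes, of which 6 encode the linker histone H1, 17 H2A, 18 H2B, 14 H3 and 15 H4. By place, 55 genes belong to cluster 1 on chromosome 6, 11 to cluster 2 and 3 to cluster 3, both on chromosome 1, and 1 to cluster 4 on chromosome 12. Older names are used here, and the current symbol is given in brackets where a gene is first named with its values.

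MDA-MB-468 and MDA-MB-231, both established human lines, received OTX015, the vehicle DMSO or no treatment, and RNA was hybridized after 4, 8 and 24 h. OTX015 inhibits the BET bromodomain proteins and was used at 650 nM in MDA-MB-468 and at 75 nM in MDA-MB-231, so that line and concentration cannot be told apart. There was 1 array per line, treatment and time, 18 in all, so that a treatment is represented by its 3 times (n = 3). No label names separate cultures, and p-values reflect nothing but the scatter of these arrays.

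DNA is wound around an octamer of the core histones H2A, H2B, H3 and H4, and H1 binds the linker between such particles. Clustered histone genes are best known for their peak of expression in S phase, when new DNA is packaged, and their main mRNAs end in a stem-loop in place of a poly(A) tail. Some of them, HIST1H2BD, HIST1H2AC and HIST2H2BE included, are also known to give polyadenylated mRNA. The labelling kit copies RNA from an oligo(dT) primer, and how much of a signal came from each kind of mRNA was not measured. BET proteins bind acetylated lysines of histones on chromatin.

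A probe counted as measured where its signal was above the array's floor, the 95th percentile of 457 olfactory receptor probes, on at least 3 of the 18 arrays. This held for 42 member probes of 37 genes, among 23630 probes in all. The 37 genes were 2 of the 6 H1 genes, 9 of 17 for H2A, 9 of 18 for H2B, 9 of 14 for H3 and 8 of 15 for H4. Of the other 33 genes, 25 were above the floor on no array and 8 on 1 or 2 arrays. The 4 H1 genes not measured were HIST1H1B, HIST1H1D, HIST1H1E and HIST1H1T. Only 12 genes were above the floor on all 18 arrays, and 6 genes passed the filter only through OTX015 arrays, so that they could not have passed without being higher there. A gene with several measured probes is given by its brightest one, and 1 probe shared by HIST1H3I and HIST1H3E is counted apart.

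Most line markers went with the labels. CDH1, the epithelial cadherin gene, was above the floor on 9 of 9 arrays of MDA-MB-468 and on 0 of 9 of MDA-MB-231, and the mesenchymal genes ZEB1 and AXL on 0 of 9 and 9 of 9. SPARC, another mesenchymal marker, was below it on all arrays of both lines. The epithelial KRT18 did not separate the lines. It was above the floor on 7 of 9 arrays of MDA-MB-468 (mean log2 8.00) and on 9 of 9 of MDA-MB-231 (7.92). EPCAM, KRT19 and VIM were above the floor on all arrays and differed in level only. Means of the epithelial EPCAM and KRT19 were 12.99 and 13.11 for MDA-MB-468, against 9.31 and 11.02 for MDA-MB-231. Those of the mesenchymal VIM were 9.18 against 13.44. PGR was below the floor throughout, ESR1 was above it on 3 arrays of MDA-MB-468 and ERBB2 on all 18. Mean array intensity ran from 174 to 503 in MDA-MB-468 and from 316 to 409 in MDA-MB-231. The dimmest was the MDA-MB-468 array of 8 h with OTX015. Between 17123 and 20254 probes exceeded the floor, fewest on that same array.

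With OTX015, histone genes of every type were higher in at least 1 line and none was lower by the test used. "Rose" and "fell" stand for a limma p, adjusted by Benjamini-Hochberg over all tested probes, no higher than 0.05 together with a log2 difference from DMSO of 0.5 or more. In MDA-MB-468, 17 of the 37 genes rose, 0 fell and 20 did not pass, while 2.00% of all tested probes rose and 2.38% of them fell. For MDA-MB-231, 11 rose, 0 fell and 26 did not pass, while 0.245% of all probes rose and 0.182% of them fell. At an unadjusted p under 0.05, 27 genes were higher and 0 lower in MDA-MB-468, and 21 and 0 in MDA-MB-231. The median log2 difference of the members was 0.65 in MDA-MB-468, where that of all probes was -0.01. In MDA-MB-231 these medians were 0.19 and -0.00. Over the 31 genes above the floor on at least 3 arrays without drug, 14 and 11 rose, and among all 70 genes tested without a filter 17 and 11 rose, with medians of 0.17 and 0.08. Of the 11 genes that rose in MDA-MB-231, 10 also rose in MDA-MB-468, which is 90.9% of the one list and 58.8% of the other. The exception was the H1 gene HIST1H1C. Averaged over both lines, with the adjusted p alone as the limit, 26 of 37 genes were higher and 0 lower, where 5.77% and 6.95% of all probes were.

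The count in MDA-MB-468 depended on the scaling and on single arrays. It was 0 with median scaling in place of quantile normalization, where 20 members had an unadjusted p under 0.05 and the lowest adjusted p of a member was 0.0659. It was 0 without the 8 h arrays, where 23 had an unadjusted p under 0.05, 3 without the 24 h arrays, 6 without the 4 h DMSO array, 2 without the 8 h or the 24 h DMSO array, 5 without the 8 h OTX015 array and 9 without the 8 h untreated array. In each of these settings at least 33 of the 37 log2 differences were positive. In MDA-MB-231 the count was 6 without the 8 h arrays, where HIST1H1C, HIST2H2AA3, HIST2H2AC, HIST1H2BK and HIST2H4A lost the call, and HIST1H1C, HIST2H2AC and HIST1H2BK also lost it without the 24 h arrays.

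Among the core histones, the share of genes that rose was highest for H2A and H2B in both lines. Their lead over H4 in MDA-MB-468 rested on HIST1H2AG, HIST1H2AE and HIST1H2BG, which passed the filter only through OTX015 arrays. In MDA-MB-468, 6 of 9 H2A genes, 5 of 9 H2B genes, 4 of 8 H4 genes, 2 of 9 H3 genes and 0 of 2 H1 genes rose. In MDA-MB-231, 4 of 9 H2A, 4 of 9 H2B, 2 of 8 H4, 0 of 9 H3 and 1 of 2 H1 genes rose. These counts hold the near-identical copies HIST2H2AA3 and HIST2H2AA4, and HIST2H4A and HIST2H4B, as separate genes. Whether a probe of a copy also reads the other was not tested. The median log2 difference in MDA-MB-468 was 0.76 for H2A, 1.05 for H2B, 0.32 for H3 and 0.47 for H4. In MDA-MB-231 the medians were 0.33 for H2A, 0.44 for H2B, 0.14 for H3 and 0.10 for H4. The differences between types were not tested, because genes of a type are not replicates.

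**Figure D1:**
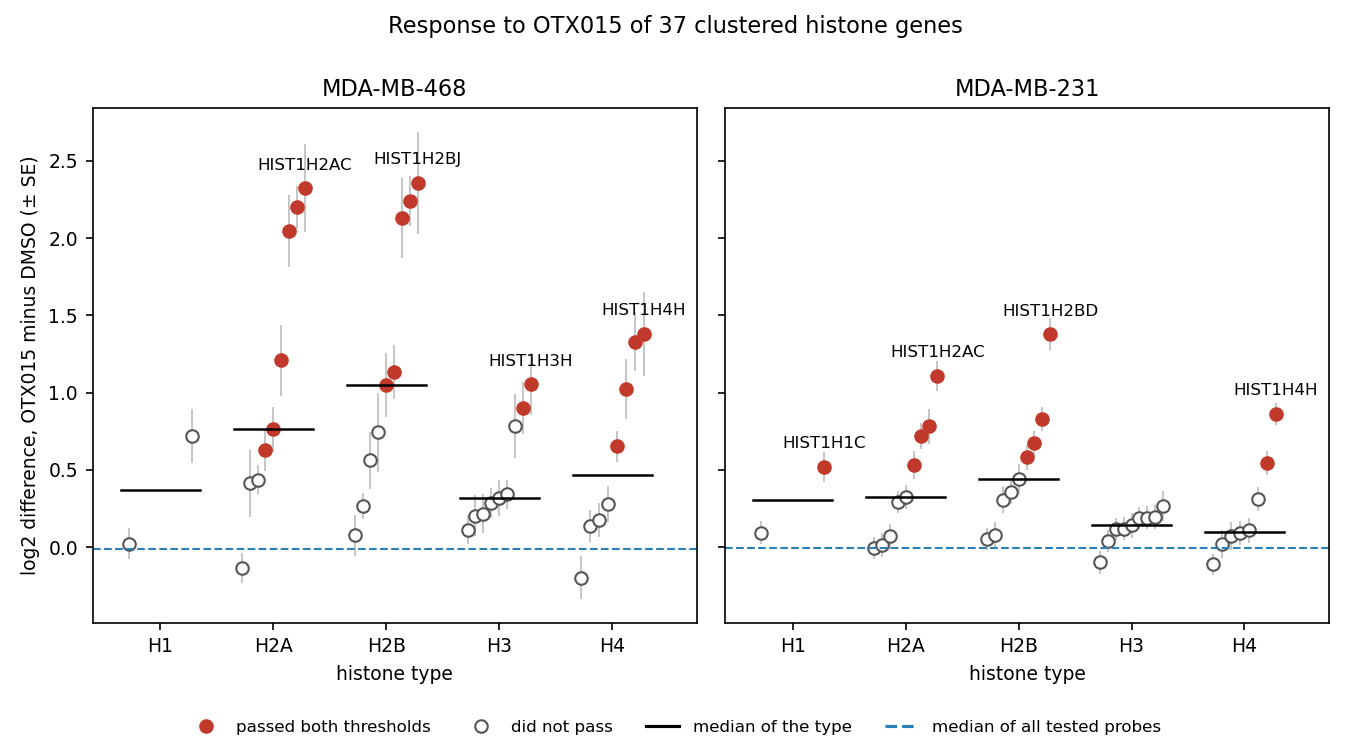
Log2 difference of OTX015 minus DMSO (y axis, bars ± SE) for the 37 measured genes, by histone type (x axis), in MDA-MB-468 (left) and MDA-MB-231 (right). Filled points passed both thresholds, black bars are type medians, and the dashed line is the median of all tested probes. The filled points reach 2.36 in MDA-MB-468 against 1.38 in MDA-MB-231, and no H3 gene is filled in MDA-MB-231.

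The start regions of the leading gene of each type, and of the leading H2B gene of cluster 2, are shown so that their elements can be compared across types. Each run spans 250 bases before to 50 bases after the transcription start, 5′ to 3′ on the gene's strand, from RefSeq on build GRCh38.p14. Capitals mark 3 motifs on either strand, which may overlap. They are the octamer motif ATTTGCAT, which the POU factor OCT1 binds and which is known from H2B promoters, the CCAAT box, which NF-Y binds, and the TATA box letters TATAAA.
HIST1H1C (chr6:26056421-26056720, minus strand): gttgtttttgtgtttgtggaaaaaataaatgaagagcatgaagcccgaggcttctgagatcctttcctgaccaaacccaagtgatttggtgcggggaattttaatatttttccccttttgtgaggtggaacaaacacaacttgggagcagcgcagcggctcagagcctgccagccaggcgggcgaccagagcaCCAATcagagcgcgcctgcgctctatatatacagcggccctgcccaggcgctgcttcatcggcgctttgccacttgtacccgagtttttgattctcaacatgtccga
HIST1H2AC (chr6:26123922-26124221, plus strand): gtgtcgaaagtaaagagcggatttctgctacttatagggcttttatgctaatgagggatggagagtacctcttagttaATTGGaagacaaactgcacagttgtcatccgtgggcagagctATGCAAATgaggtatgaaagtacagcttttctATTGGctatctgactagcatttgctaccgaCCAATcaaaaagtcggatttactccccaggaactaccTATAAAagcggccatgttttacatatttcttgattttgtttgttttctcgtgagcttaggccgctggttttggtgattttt
HIST1H2BD (chr6:26157871-26158170, plus strand): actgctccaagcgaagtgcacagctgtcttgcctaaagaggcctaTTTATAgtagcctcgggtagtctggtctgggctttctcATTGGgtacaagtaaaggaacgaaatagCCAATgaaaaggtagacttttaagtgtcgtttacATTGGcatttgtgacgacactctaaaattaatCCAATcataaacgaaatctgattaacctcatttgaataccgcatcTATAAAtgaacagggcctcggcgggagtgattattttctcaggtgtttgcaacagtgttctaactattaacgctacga
HIST2H2BE (chr1:149886633-149886932, minus strand): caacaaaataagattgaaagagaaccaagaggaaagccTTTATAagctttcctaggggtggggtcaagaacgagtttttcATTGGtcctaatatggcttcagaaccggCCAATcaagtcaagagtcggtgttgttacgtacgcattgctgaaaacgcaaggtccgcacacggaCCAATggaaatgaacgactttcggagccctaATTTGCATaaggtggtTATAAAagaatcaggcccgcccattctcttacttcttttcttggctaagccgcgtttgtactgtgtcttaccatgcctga
HIST1H3H (chr6:27809801-27810100, plus strand): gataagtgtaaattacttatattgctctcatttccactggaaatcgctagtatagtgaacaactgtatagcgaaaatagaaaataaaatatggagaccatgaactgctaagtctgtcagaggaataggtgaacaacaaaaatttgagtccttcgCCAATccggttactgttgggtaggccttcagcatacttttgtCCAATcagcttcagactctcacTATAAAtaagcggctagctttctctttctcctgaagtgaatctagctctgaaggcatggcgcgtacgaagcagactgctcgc
HIST1H4H (chr6:26285485-26285784, minus strand): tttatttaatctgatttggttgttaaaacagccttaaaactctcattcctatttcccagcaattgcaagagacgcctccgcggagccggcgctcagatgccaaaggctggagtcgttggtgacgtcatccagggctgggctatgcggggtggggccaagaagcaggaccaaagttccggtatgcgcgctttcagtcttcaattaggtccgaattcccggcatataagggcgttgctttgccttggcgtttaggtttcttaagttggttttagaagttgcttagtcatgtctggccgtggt

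Of the 70 genes, 65 had a start region in the table. HIST1H2AH, HIST1H3I, HIST1H3J, HIST1H4A and HIST1H4C had none. The octamer was found in 14 of 18 H2B and 11 of 16 H2A regions. None of the 6 H1, 12 H3 and 13 H4 regions held it, while 1.77% of all 35116 regions in the table did. Where an H2A and an H2B gene lie head to head, their regions overlap, and 1 octamer can count for both. The octamer 130 bases before HIST1H2AC is the one 123 bases before HIST1H2BC, with 246 bases between the starts. The CCAAT letters were in 55 of the 65 regions, among them only 3 of 13 for H4, against 34.6% of all regions. The TATAAA letters were in 44 of 65, against 11.5%. In 8 H2B genes, 6 of them measured, the octamer began 45 to 49 bases before the start on the gene's own strand, as it does in HIST2H2BE at 46 bases. HIST1H2BD, the H2B gene with the largest mean rise, held no octamer in its window, and HIST1H4H held none of the 3 motifs. A match describes letters and is no measurement of binding.

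Of the H1 genes, HIST1H1C (H1-2), which encodes the widely expressed linker histone H1.2, rose in MDA-MB-231 only. Its log2 signals at 4, 8 and 24 h were 8.49, 8.71 and 9.11 with OTX015 in MDA-MB-468, against 8.19, 7.99 and 7.97 with DMSO and 8.32, 7.98 and 7.94 untreated. The MDA-MB-231 arrays read 9.66, 9.89 and 10.01 with OTX015, against 9.50, 9.29 and 9.21 with DMSO and 9.33, 9.35 and 9.20 untreated. All OTX015 arrays were above all control arrays in both lines. The log2 difference was 0.72 ± 0.18 (SE) in MDA-MB-468, which did not pass (adjusted p = 0.057, limma), and 0.52 ± 0.098 in MDA-MB-231 (adjusted p = 0.00884, limma). The call in MDA-MB-231 was lost without the 8 h DMSO (adjusted p = 0.0905), 8 h OTX015 (0.0595), 24 h DMSO (0.0864) or 24 h OTX015 array (0.101), and without all 8 h (0.190) or all 24 h arrays (0.199), all from limma. HIST1H1A (H1-1), the other measured H1 gene, had 6.38, 6.23 and 6.22 with OTX015 in MDA-MB-468, against 6.20, 6.38 and 6.19 with DMSO and 6.20, 6.30 and 6.29 untreated. Its values for MDA-MB-231 were 6.43, 6.40 and 6.33 with OTX015, against 6.20, 6.31 and 6.37 with DMSO and 6.33, 6.43 and 6.30 untreated. The groups overlapped in both lines, with differences of 0.02 and 0.09 that did not pass.

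Among H2A genes, HIST1H2AC (H2AC6) had the largest rise. Its log2 signals at 4, 8 and 24 h were 9.60, 9.76 and 11.11 with OTX015 in MDA-MB-468, against 7.48, 7.89 and 8.14 with DMSO and 7.29, 7.81 and 7.40 untreated. Its values for MDA-MB-231 were 9.42, 9.98 and 9.82 with OTX015, against 8.64, 8.75 and 8.50 with DMSO and 8.54, 8.56 and 8.50 untreated. Every OTX015 array was above every control array of its line. The difference was 2.32 ± 0.29 (SE) in MDA-MB-468 (adjusted p = 0.00704, limma) and 1.11 ± 0.098 in MDA-MB-231 (adjusted p = 1.57e-05, limma). Its promoter, shown above, holds an octamer on the strand opposite to the gene, shared with the neighbouring H2B gene HIST1H2BC.

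The H2A genes HIST2H2AA3 (H2AC18) and HIST2H2AA4 (H2AC19) are near-identical copies in cluster 2, so their probes may read both. HIST2H2AA3 had 8.94, 9.76 and 10.27 with OTX015 in MDA-MB-468, against 7.00, 7.72 and 7.66 with DMSO and 6.79, 7.56 and 7.56 untreated. For MDA-MB-231 the signals were 9.71, 9.89 and 9.80 with OTX015, against 9.29, 9.08 and 8.69 with DMSO and 9.27, 9.05 and 8.54 untreated. The groups did not overlap in either line, and the differences were 2.20 ± 0.14 (SE, adjusted p = 0.00147, limma) and 0.78 ± 0.11 (adjusted p = 0.00132). Its second measured probe also rose in both lines, but by 1.53 in MDA-MB-468 against 0.61 in MDA-MB-231. HIST2H2AA4 had 8.68, 9.80 and 9.93 with OTX015 in MDA-MB-468, against 7.31, 7.33 and 7.61 with DMSO and 7.25, 7.23 and 7.26 untreated. MDA-MB-231 cells gave 9.24, 9.55 and 9.38 with OTX015, against 8.75, 8.81 and 8.46 with DMSO and 8.71, 8.70 and 8.67 untreated. It rose by 2.05 ± 0.23 and 0.72 ± 0.086, again with no overlap.

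HIST2H2AC (H2AC20), a further H2A gene of cluster 2, had 8.26, 8.75 and 9.22 with OTX015 in MDA-MB-468, against 7.63, 7.60 and 7.37 with DMSO and 7.70, 7.44 and 7.37 untreated. The MDA-MB-231 arrays read 8.79, 8.93 and 8.94 with OTX015, against 8.58, 8.35 and 8.14 with DMSO and 8.35, 8.28 and 8.22 untreated. The OTX015 arrays were again the highest in each line, with differences of 1.21 ± 0.23 (SE, adjusted p = 0.0277, limma) and 0.53 ± 0.092 (adjusted p = 0.00542). Its call in MDA-MB-231 was lost without the 8 h DMSO (adjusted p = 0.0543, limma), 24 h DMSO (0.0596) or 24 h OTX015 array (0.0698). HIST1H2AG (H2AC11) and HIST1H2AE (H2AC8) rose only in MDA-MB-468, by 0.76 ± 0.15 and 0.63 ± 0.13. Both were below the floor on all DMSO arrays of that line, so the rise is at least 1.5-fold for HIST1H2AG and at least 1.3-fold for HIST1H2AE, measured from the floor. HIST1H2AM (H2AC17) passed the adjusted p but not the size in both lines, with 0.44 and 0.29. The lowest mean response was that of HIST1H2AA (H2AC1), known as a testis H2A gene, with 6.28, 6.03 and 6.31 under OTX015 in MDA-MB-468, against 6.54, 6.23 and 6.26 under DMSO and 6.65, 6.28 and 6.58 untreated. MDA-MB-231 cells gave 6.47, 6.35 and 6.50 with OTX015, against 6.46, 6.41 and 6.41 with DMSO and 6.29, 6.34 and 6.55 untreated. Its groups overlapped in both lines, and the differences were -0.14 and 0.01.

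Of the 4 largest mean responses of all members, 2 were those of the H2B genes HIST1H2BD and HIST1H2BJ. HIST1H2BD (H2BC5) had log2 signals of 10.33, 10.67 and 10.79 with OTX015 in MDA-MB-468 at 4, 8 and 24 h, against 8.53, 8.33 and 8.20 with DMSO and 8.42, 8.16 and 8.02 untreated. Its values for MDA-MB-231 were 10.19, 10.59 and 10.48 with OTX015, against 9.12, 9.03 and 8.97 with DMSO and 9.28, 9.06 and 8.92 untreated. All OTX015 arrays stood at least 0.9 above the highest control array of the line. The difference was 2.24 ± 0.16 (SE) in MDA-MB-468 (adjusted p = 0.00147, limma) and 1.38 ± 0.10 in MDA-MB-231 (adjusted p = 8.34e-06). In MDA-MB-468, HIST1H2BD and HIST2H2AA3 were the 2 of 17 genes whose call held without any single array.

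HIST1H2BJ (H2BC11) was near the floor without drug in MDA-MB-468 and rose most there. It had 7.68, 9.05 and 9.37 with OTX015 in MDA-MB-468, against 6.46, 6.22 and 6.36 with DMSO and 6.31, 6.28 and 6.25 untreated. For MDA-MB-231 the signals were 7.64, 8.01 and 7.67 with OTX015, against 7.01, 7.22 and 7.06 with DMSO and 7.11, 7.18 and 6.96 untreated. The groups did not overlap, and the differences were 2.36 ± 0.33 (SE, adjusted p = 0.0112, limma) and 0.67 ± 0.077 (adjusted p = 0.000159). HIST2H2BE (H2BC21), an H2B gene of cluster 2, had 8.17, 9.41 and 9.13 with OTX015 in MDA-MB-468, against 6.83, 6.76 and 6.73 with DMSO and 6.75, 6.55 and 6.90 untreated. MDA-MB-231 cells gave 7.57, 7.69 and 7.75 with OTX015, against 6.89, 6.82 and 6.82 with DMSO and 6.90, 6.76 and 6.73 untreated. It rose by 2.13 ± 0.26 and 0.83 ± 0.078, with no overlap in either line.

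HIST1H2BK (H2BC12) was bright in both lines without drug. It had 10.71, 11.22 and 11.50 with OTX015 in MDA-MB-468, against 10.02, 9.99 and 10.02 with DMSO and 10.12, 9.95 and 9.92 untreated. The MDA-MB-231 arrays read 11.85, 12.03 and 11.95 with OTX015, against 11.49, 11.34 and 11.25 with DMSO and 11.37, 11.28 and 11.26 untreated. It rose by 1.13 ± 0.17 and 0.58 ± 0.080, and its OTX015 arrays were the highest of each line. HIST1H2BG (H2BC8) was below the floor on all 12 arrays without drug, rose by 1.05 ± 0.21 in MDA-MB-468, which is at least 1.86-fold over the floor, and was below the floor on all OTX015 arrays of MDA-MB-231. HIST1H2BC (H2BC4) differed by 0.74 in MDA-MB-468 (adjusted p = 0.143, limma) and 0.44 in MDA-MB-231, and HIST1H2BE (H2BC6) by 0.56 and 0.36, none of which passed. In MDA-MB-231 both missed only the minimum size (adjusted p = 0.0231 for HIST1H2BC and 0.0194 for HIST1H2BE, limma). HIST1H2BH (H2BC9) had the lowest mean response of the type, with 6.77, 6.08 and 6.79 under OTX015 in MDA-MB-468, against 6.74, 6.28 and 6.39 under DMSO and 6.73, 6.34 and 6.39 untreated, so that these groups overlapped. In MDA-MB-231 it had 6.34, 6.12 and 6.15 with OTX015, against 6.10, 6.10 and 6.15 with DMSO and 6.27, 5.95 and 5.98 untreated, below the floor on all OTX015 and DMSO arrays.

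**Figure D2:**
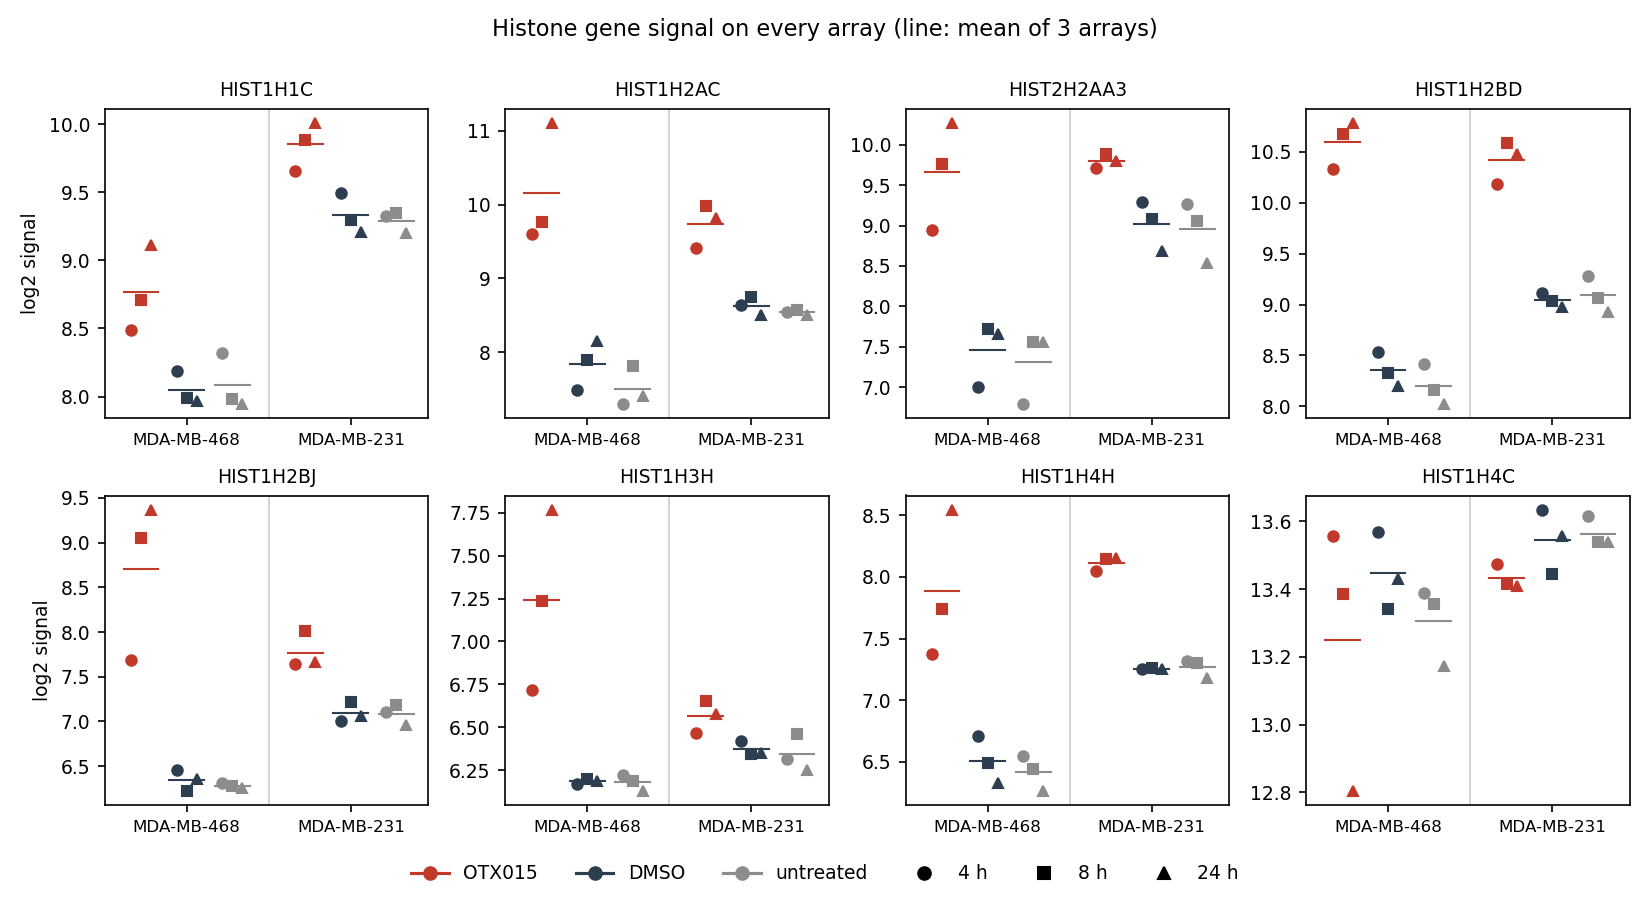
Log2 signal (y axis) of 8 histone genes on every array, by line (x axis) and treatment, with OTX015 in red, DMSO in dark blue and untreated in grey. Symbols give the time and lines the mean of 3 arrays. HIST1H2BD reads 10.33 to 10.79 with OTX015 in MDA-MB-468 and HIST1H4C reads 12.80 on the 24 h OTX015 array of that line.

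H3 genes rose in MDA-MB-468 only, and 2 of 9 passed there. HIST1H3H (H3C10) had 6.72, 7.23 and 7.77 with OTX015 in MDA-MB-468, against 6.17, 6.20 and 6.19 with DMSO and 6.22, 6.19 and 6.13 untreated. Its values for MDA-MB-231 were 6.47, 6.65 and 6.58 with OTX015, against 6.42, 6.34 and 6.35 with DMSO and 6.32, 6.46 and 6.25 untreated. The difference was 1.05 ± 0.20 (SE, adjusted p = 0.0279, limma) in MDA-MB-468, where all DMSO arrays were below the floor and the rise was at least 1.88-fold, and 0.19 ± 0.076 (adjusted p = 0.218) in MDA-MB-231. HIST1H3F (H3C7) had 7.19, 7.45 and 7.96 with OTX015 in MDA-MB-468, against 6.57, 6.68 and 6.64 with DMSO and 6.56, 6.81 and 6.48 untreated. For MDA-MB-231 the signals were 6.73, 6.60 and 6.56 with OTX015, against 6.44, 6.48 and 6.54 with DMSO and 6.41, 6.55 and 6.26 untreated. Its rise in MDA-MB-468 was 0.90 ± 0.17 (adjusted p = 0.0269, limma), and it differed by 0.14 in MDA-MB-231. HIST1H3G (H3C8) had a difference of 0.78 in MDA-MB-468 (adjusted p = 0.0722, limma), which missed the threshold. HIST1H3E (H3C6) had the lowest mean response of the type, with 6.46, 6.55 and 6.51 under OTX015 in MDA-MB-468, against 6.37, 6.47 and 6.35 under DMSO and 6.51, 6.37 and 6.26 untreated. In MDA-MB-231 it had 6.47, 6.34 and 6.33 with OTX015, against 6.43, 6.56 and 6.44 with DMSO and 6.44, 6.36 and 6.41 untreated. Its groups overlapped in both lines, with differences of 0.11 and -0.10, and the probe shared by HIST1H3I and HIST1H3E had -0.04 and 0.00.

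Among H4 genes, all of which encode the same protein or nearly so, 4 rose in MDA-MB-468 and 2 of these also in MDA-MB-231. HIST1H4H (H4C8) had 7.38, 7.74 and 8.55 with OTX015 in MDA-MB-468, against 6.71, 6.49 and 6.33 with DMSO and 6.54, 6.44 and 6.26 untreated. MDA-MB-231 cells gave 8.05, 8.15 and 8.15 with OTX015, against 7.25, 7.26 and 7.25 with DMSO and 7.32, 7.30 and 7.18 untreated. The groups did not overlap, and the differences were 1.38 ± 0.27 (SE, adjusted p = 0.030, limma) and 0.86 ± 0.073 (adjusted p = 1.12e-05). HIST2H4A (H4C14) and HIST2H4B (H4C15) are near-identical copies in cluster 2. HIST2H4A had 7.36, 8.40 and 8.03 with OTX015 in MDA-MB-468, against 6.47, 6.81 and 6.53 with DMSO and 6.61, 6.52 and 6.41 untreated. The MDA-MB-231 arrays read 7.27, 7.35 and 7.12 with OTX015, against 6.89, 6.66 and 6.56 with DMSO and 6.88, 6.80 and 6.80 untreated. It rose by 1.33 ± 0.19 and 0.54 ± 0.079, with all OTX015 arrays above all controls. The call in MDA-MB-231 missed the minimum size without the 8 h OTX015 array, with 0.47.

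HIST2H4B had 6.99, 7.82 and 7.66 with OTX015 in MDA-MB-468, against 6.51, 6.37 and 6.51 with DMSO and 6.46, 6.42 and 6.23 untreated. Its values for MDA-MB-231 were 6.73, 6.90 and 6.65 with OTX015, against 6.39, 6.51 and 6.45 with DMSO and 6.56, 6.51 and 6.37 untreated. It rose by 1.02 ± 0.19 (SE) in MDA-MB-468 and differed by 0.31 ± 0.075 in MDA-MB-231, which missed the minimum size. HIST1H4K (H4C12) had 7.76, 8.03 and 7.81 with OTX015 in MDA-MB-468, against 7.28, 7.18 and 7.18 with DMSO and 7.23, 7.22 and 7.00 untreated. For MDA-MB-231 the signals were 6.90, 7.24 and 7.21 with OTX015, against 7.18, 7.04 and 7.07 with DMSO and 7.02, 6.91 and 7.15 untreated, so that it rose in MDA-MB-468 by 0.65 ± 0.10 while the groups of MDA-MB-231 overlapped. HIST1H4C (H4C3) was at the bright end and had the lowest mean response of all members. It had 13.56, 13.39 and 12.80 with OTX015 in MDA-MB-468, against 13.57, 13.34 and 13.43 with DMSO and 13.39, 13.36 and 13.17 untreated. MDA-MB-231 cells gave 13.48, 13.42 and 13.41 with OTX015, against 13.63, 13.44 and 13.56 with DMSO and 13.62, 13.54 and 13.54 untreated. Its differences of -0.20 and -0.11 did not pass, and only the 24 h OTX015 array of MDA-MB-468 lay clearly below the controls of its line.

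Counted array by array, all 3 OTX015 arrays stood above all 6 control arrays for 24 of 37 genes in MDA-MB-468, where this held for 5.68% of all tested probes. In MDA-MB-231 it held for 19 of 37, against 3.57%. Of the 31 genes above the floor on at least 3 arrays without drug, it held for 20 in MDA-MB-468 against 17 in MDA-MB-231, where 5.72% and 3.56% of the probes that passed this filter did so. By type, these were 1 of 2 H1, 7 of 9 H2A, 7 of 9 H2B, 5 of 9 H3 and 4 of 8 H4 genes in MDA-MB-468. In MDA-MB-231 they were 1, 5, 7, 3 and 3.

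Along the chromosomes, the genes that rose were spread over both large clusters. In cluster 1, 11 of 27 measured genes rose in MDA-MB-468 against 6 of 27 in MDA-MB-231. In cluster 2, with its near-identical copies counted as separate genes, 6 of 9 and 5 of 9 rose. The median difference in cluster 2 was 1.21 in MDA-MB-468 against 0.53 in MDA-MB-231. Gaps of over 300 kb divide cluster 1 into 3 stretches. The first, from HIST1H2AA to HIST1H4H, had 20 measured of 34 genes, of which 6 and 4 rose. The second, from HIST1H2BJ to HIST1H2AH, had 3 measured of 5 genes, of which 3 and 2 rose. The third, from HIST1H2BL to HIST1H2BO, had 4 measured of 16 genes, of which 2 and 0 rose. HIST3H2A (H2AC25), the only measured gene of cluster 3, did not pass, with 0.41 in MDA-MB-468 and, below the floor on all its OTX015 and DMSO arrays, no fold in MDA-MB-231, and HIST4H4 of cluster 4 was not measured.

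**Figure D3:**
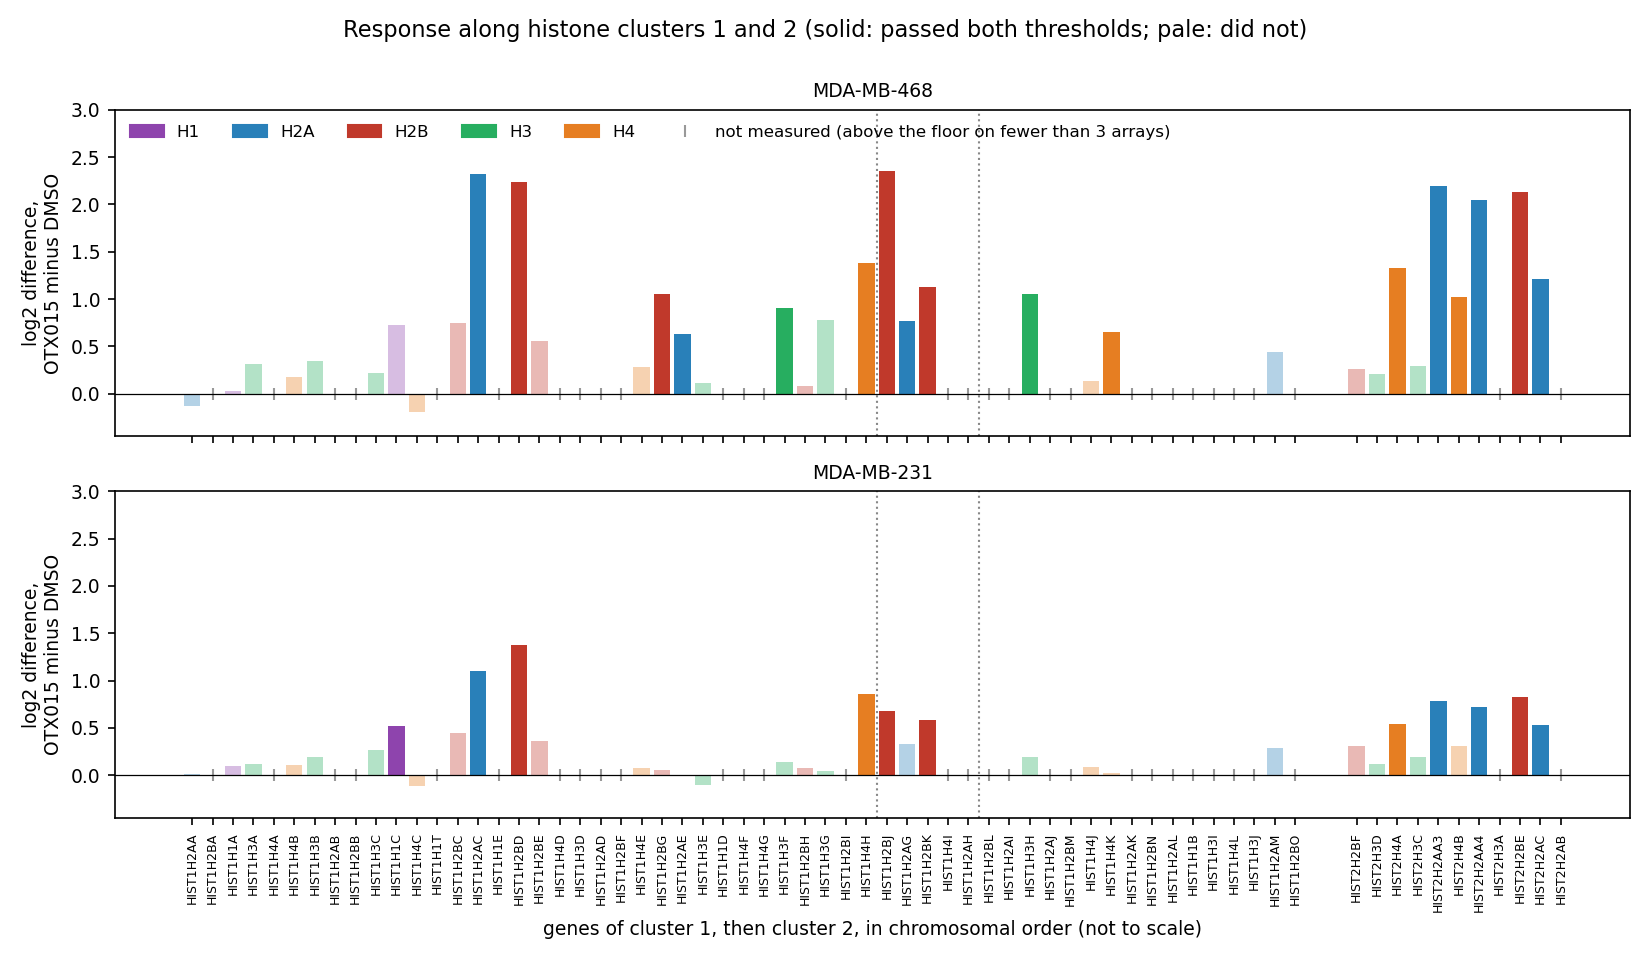
Log2 difference of OTX015 minus DMSO (y axis) for the genes of cluster 1 and then cluster 2 in chromosomal order (x axis, not to scale), in MDA-MB-468 (top) and MDA-MB-231 (bottom). Solid bars passed both thresholds, pale bars did not, ticks mark genes not measured, and dotted lines divide the stretches of cluster 1. Genes with tall bars, such as HIST1H2AC at 2.32, stand beside neighbours that did not pass.

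H2A and H2B genes often lie head to head, and 11 such pairs were found with starts 194 to 248 bases apart. Both genes were measured in 4 pairs. In the pair HIST1H2AC and HIST1H2BC the H2A gene had the larger difference, 2.32 against 0.74 in MDA-MB-468 and 1.11 against 0.44 in MDA-MB-231. HIST1H2BC was above the floor on 2 of 6 arrays without drug in each line, so its differences rest on control values mostly below it. In the pair HIST2H2BE and HIST2H2AC the H2B gene had the larger one, 2.13 against 1.21 in MDA-MB-468 and 0.83 against 0.53 in MDA-MB-231. The other 2 pairs, HIST1H2BJ with HIST1H2AG and HIST1H2BG with HIST1H2AE, cannot be ranked, because HIST1H2AG, HIST1H2BG and HIST1H2AE were below the floor on all DMSO arrays of both lines. The 2 genes of a pair share the sequence between their starts, and the differences within pairs were not tested.

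In the test of the difference between the lines, the response was larger in MDA-MB-468 for 7 of 37 genes and smaller for none, while 0.872% of all probes had a higher and 1.19% a lower response in MDA-MB-468. The difference of the responses was 1.68 ± 0.37 (SE) for HIST1H2BJ (adjusted p = 0.0357, limma), 1.42 ± 0.21 for HIST2H2AA3 (adjusted p = 0.00382) and 1.33 ± 0.27 for HIST2H2AA4 (adjusted p = 0.0241). It was 1.30 ± 0.29 for HIST2H2BE, 0.99 ± 0.23 for HIST1H2BG, 0.63 ± 0.15 for HIST1H2AE and 0.63 ± 0.15 for HIST1H4K, with adjusted p from 0.0367 to 0.0464. HIST1H2BG and HIST1H2AE were below the floor on all OTX015 and DMSO arrays of MDA-MB-231, so their response there is not known and the fitted differences of both are not sizes of a measured change. Among the 31 genes above the floor on at least 3 arrays without drug, which leave both out, 5 passed. HIST2H2AA3 and HIST2H2AA4 count as separate genes here, though their probes may read both. All 10 genes that rose in both lines had the larger value in MDA-MB-468, but 6 of these 10 did not pass this test. The count of 7 was 0 with median scaling, 0 when the 8 h arrays were left out, 1 when those of 24 h were, and 1 or 2 without any single array of MDA-MB-231. Among single arrays of MDA-MB-468, it was 1 without the 8 h or 24 h DMSO array, 3 without the 8 h OTX015 array and 18 without the 4 h OTX015 array. It was 4 with no background correction and 14 with DMSO and untreated arrays pooled as the control, and only HIST2H2AA3 kept its call without any single array.

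Responses at single times compared the lone OTX015 array with the mean of the DMSO and untreated arrays of that time. A call here needs only the adjusted p. The 37 genes include the 6 that passed the filter only through OTX015 arrays, which can raise the counts that follow. In MDA-MB-468, 20 of 37 genes were higher at 4 h, where 9.17% of all probes were, 21 at 8 h, against 9.96%, and 26 at 24 h, against 7.36%. The H4 gene HIST1H4C was the 1 member lower at 24 h, by 0.50 on the log2 scale. No member was lower at 4 h or 8 h, where 9.80% and 12.5% of all probes were, and 7.25% were at 24 h. The median response of the 37 genes was 0.41 at 4 h, 0.52 at 8 h and 1.09 at 24 h. In MDA-MB-231, 5 genes were higher at 4 h, against 0.347% of all probes, 13 at 8 h, against 1.06%, and 12 at 24 h, against 0.944%. None was lower, where 0.267%, 0.931% and 0.918% of all probes were. The medians were 0.17, 0.26 and 0.19.

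Already at 4 h, HIST1H2AC was higher by 2.22 and HIST2H2AA3 by 2.05 in MDA-MB-468, and HIST1H2BD by 1.85. The second probe of HIST2H2AA3 gave 0.84 there. In MDA-MB-231 the 5 genes higher at 4 h were HIST1H2BD with 0.99, HIST1H2AC with 0.82, HIST1H4H with 0.76, HIST2H2BE with 0.68 and HIST1H2BJ with 0.58. All 5 also rose over the 3 times together in both lines. None of these 5 calls at 4 h was left with median scaling, while 8 genes were higher with no background correction or in the deposited log2 table. In MDA-MB-468, median scaling gave 12 genes higher at 4 h, and 10 higher and 1 lower at 8 h. It gave 8 higher at 8 h in MDA-MB-231 and ended the lower call of HIST1H4C at 24 h in MDA-MB-468.

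Each time has 1 OTX015 array, so the next comparison sets 1 array against another, with a spread taken from the control arrays alone. In MDA-MB-468 the 24 h response was above the 4 h response for 17 of 37 genes by that test, and for 13 of the 31 above the floor without drug, while the response of 4.43% of all probes was larger and of 5.54% smaller at 24 h. The largest of these differences was 1.76 for HIST1H2BJ, followed by 1.50 for HIST1H4H and 1.34 for HIST1H2BC. Genes of every type passed. Among them, the H2A genes HIST1H2AG and HIST1H2AE and the H2B genes HIST1H2BG and HIST1H2BE had passed the filter only through OTX015 arrays. HIST1H2AC, with a difference of 1.13, and HIST2H2AA3, with 0.61, did not pass that test. On the second probe of HIST2H2AA3 the response was 0.84 at 4 h and 1.94 at 24 h. In MDA-MB-231 no member passed in limma, where 0.0127% of all probes were higher and 0.00423% lower, although 6 members were higher at an unadjusted p under 0.05 and 26 of the 37 differences were positive. The H2B median in MDA-MB-468 was 0.64 at 4 h, 0.72 at 8 h and 1.61 at 24 h. It was the highest of the types at each time over the 37 genes, those that passed only through OTX015 arrays included.

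**Figure D4:**
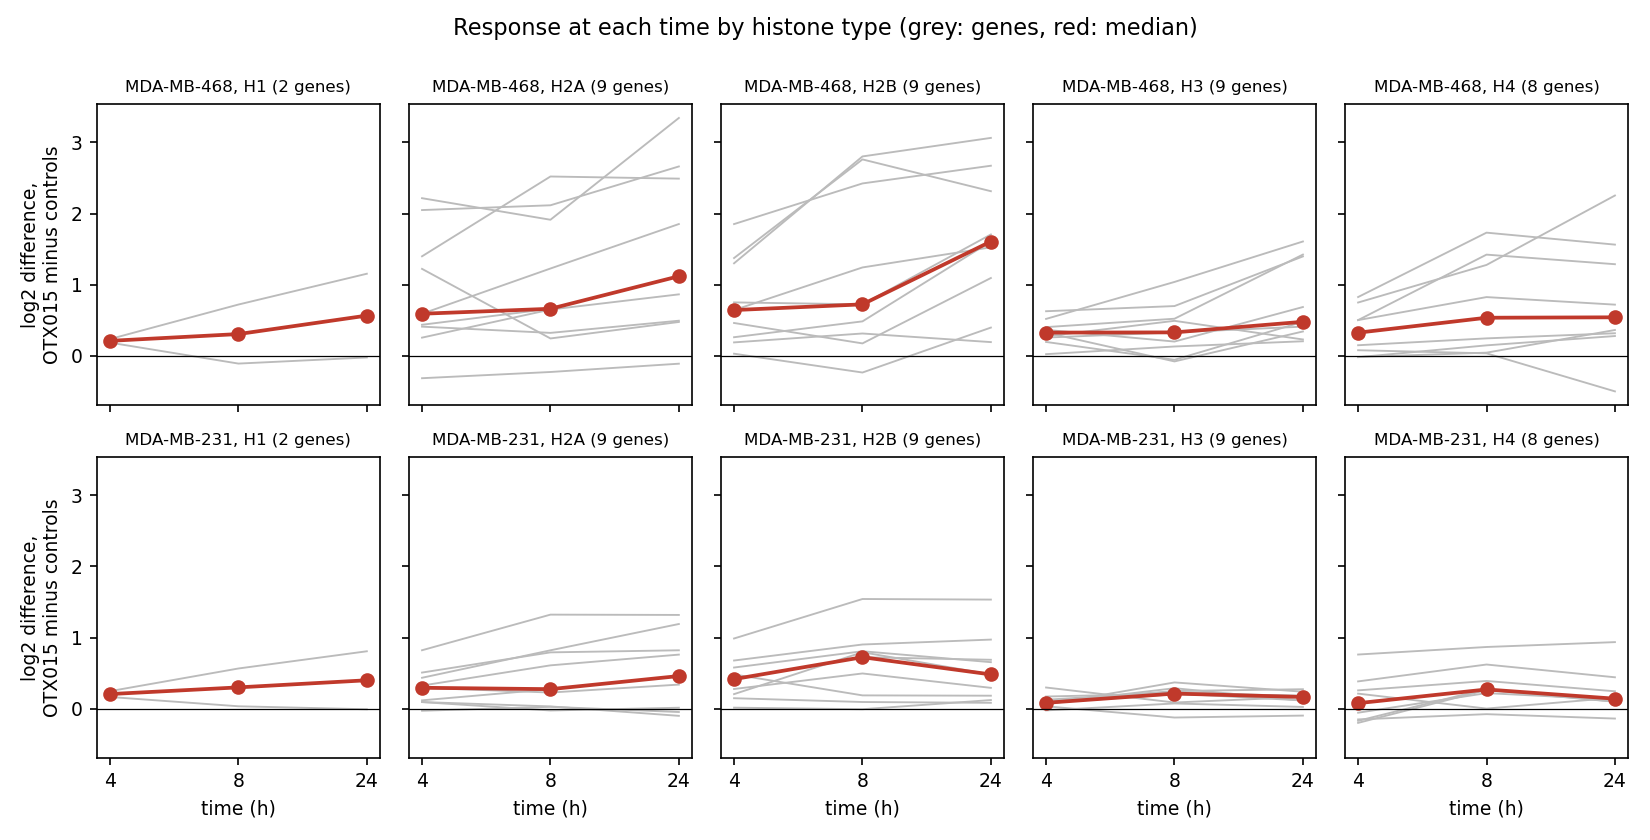
Log2 difference of OTX015 minus the mean of the control arrays of the same time (y axis) against time in hours (x axis), by type, in MDA-MB-468 (top) and MDA-MB-231 (bottom). Grey lines are genes and red lines type medians. The H2B median of MDA-MB-468 reaches 1.61 at 24 h, and the medians of MDA-MB-231 stay under 0.73.

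Without drug, more histone genes were lower than higher in MDA-MB-468 relative to MDA-MB-231. With a minimum log2 difference of 0.5, 1 of 37 genes was higher, where 17.0% of all probes were, and 11 were lower, where 16.6% were. The gene higher in MDA-MB-468 was HIST3H2A, above the floor on 6 of 6 arrays there against 1 of 6 in MDA-MB-231, so that the fitted difference of 3.13 rests on values mostly below the floor in MDA-MB-231. The lower genes were HIST2H2AA3 (-1.60), HIST2H2AA4 (-1.35), HIST1H2BK (-1.33), HIST1H1C (-1.25), HIST1H2AC (-0.91), HIST1H4H (-0.80), HIST2H2AC (-0.80), HIST1H2BD (-0.79) and HIST1H2BJ (-0.78), of which HIST1H4H was above the floor on 4 and HIST1H2BJ on 2 of 6 arrays of MDA-MB-468, and the others on all. HIST1H3C and HIST1H4B, also lower, were above it on no array of MDA-MB-468 without drug, and were lower there by at least 1.26-fold and at least 1.12-fold. The second probes of HIST2H2AA3 and HIST1H2BK gave -0.85 and -1.98. For HIST1H2BD the mean log2 signal was 10.59 ± 0.24 in MDA-MB-468 against 10.42 ± 0.21 in MDA-MB-231 with OTX015, and 8.28 ± 0.18 and 9.06 ± 0.13 without drug (SD, n = 3 and 6). The baseline and the OTX015 comparison share the DMSO arrays and are given side by side only.

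Among the controls, no member differed between DMSO and untreated cells in either line, where 0.00% of all probes were higher and at most 0.00423% lower in limma. At an unadjusted p under 0.05, 3 members were higher with DMSO in MDA-MB-468 against 0 in MDA-MB-231. Over time without drug, HIST2H2AA3 was higher in MDA-MB-468 at 8 h than at 4 h by 0.75 and at 24 h by 0.72. It was lower in MDA-MB-231 at 24 h by 0.67 on the log2 scale. Its second measured probe had -0.34 at 8 h and -0.21 at 24 h in MDA-MB-468, and -0.42 at 24 h in MDA-MB-231. None of these values of the second probe passed. HIST3H2A was higher in MDA-MB-468 by 0.75 at 8 h and 0.84 at 24 h. These were 2 of 37 members at each time in MDA-MB-468, where 8.24% and 7.87% of all probes were higher and 3.55% and 4.97% lower. With median scaling, both calls of HIST3H2A and the call of HIST2H2AA3 at 8 h were lost, with -0.15 for HIST3H2A at 8 h, and HIST2H2AA3 at 24 h had 0.46, under the minimum size. That scaling gave 7 members lower at 8 h and 5 at 24 h, and moved the median of all probes to -0.44 and -0.34, against -0.07 and -0.05 with quantile normalization. It also ended the lower call of HIST2H2AA3 in MDA-MB-231, with -0.41. In MDA-MB-231 no member differed between 8 h and 4 h, where 0.00423% of all probes were higher and 0.110% lower, and at 24 h 0.305% were higher and 0.614% lower. The control arrays of 4 h in MDA-MB-468 had 456 probes lower by over 1 than both later times, none of them a member.

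Histone genes outside the clusters, most of which give polyadenylated mRNA, passed the test in MDA-MB-468 only. Of 11 measured genes, 3 rose, 1 fell and 7 did not pass there, where 2.00% of all probes rose and 2.38% fell. None passed in MDA-MB-231, where 0.245% rose and 0.182% fell and H1FX had 0.41 (adjusted p = 0.0122, limma) and missed the minimum size. H1FX (H1-10), a linker histone gene, rose by 1.23, H3F3B (H3-3B), a gene of the replacement histone H3.3, by 0.82 and H3F3C (H3-5), an H3.3-like gene, by 0.77, while H2AFY2 (MACROH2A2), a macroH2A gene, fell by 0.98. Of 24 measured genes for transcription and processing of histone mRNA and for histone chaperones, such as NPAT, SLBP and ASF1B, none passed in either line, with medians of -0.04 and -0.01. Of 21 S phase genes, 2 fell in MDA-MB-468, MCM2 of the replicative helicase by 0.90 and UHRF1, a factor of DNA methylation upkeep, by 0.65, where 2.38% of all probes fell, and none passed in MDA-MB-231. The medians of the S phase genes were -0.28 in MDA-MB-468 against -0.07 in MDA-MB-231. In bulk RNA, a change in the share of cells that express a gene cannot be told apart from a change in RNA per cell, and the part of the S phase genes' values in the histone values was not tested.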

How the data were processed

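Total RNA of 18 samples was hybridized to Illumina HumanHT-12 v4 BeadChips. The deposited intensity table holds mean bead signals per probe from GenomeStudio, with no control probes and no detection p-values, and was not normalized. The deposited log2 table holds the same arrays after normalization by the authors, whose steps were not stated. It served as an alternative only.

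Intensities were background-corrected with limma's normexp model (limma 3.58.1, R 4.3.3, offset 50), quantile-normalized and taken to log2. Members were found through gene identifiers and RefSeq aliases, and probes above the floor on at least 3 arrays were tested. In each line, the fit set OTX015 against DMSO, with time as a factor (9 arrays, 4 residual degrees of freedom), and lines, times and controls in further limma fits. Responses at single times rest on 3 residual degrees of freedom, and their lone OTX015 array was assumed to vary like the control arrays. P-values were adjusted over all 23630 tested probes. The median standard error was 0.114 for MDA-MB-468 and 0.0778 for MDA-MB-231 on the log2 scale, and the number of arrays limits the precision. Only the fits of OTX015 against DMSO and of the difference between lines were run on simulated arrays. Those arrays held no effect of time and no shift in scale between arrays, so they cannot speak to the scaling.

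Genes were named by rule. For each type these were up to 4 genes past the test with the largest mean response and the measured gene with the lowest, with values on every array. Other genes past a test, genes that differed between lines and genes of clusters 3 and 4 were named with their differences. The members and gene lists were chosen with earlier results of these data known. Alternatives covered background, scaling, filters, control arrays, moderation and left-out arrays. Start regions of 300 bases came from RefSeq. Figures were drawn with matplotlib 3.10.9.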

Additional observations from a re-analysis of the deposited data

Results flagged for a closer look

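For 7 genes the test of the difference between lines gave a larger response in MDA-MB-468, by 1.68 on the log2 scale for HIST1H2BJ, 1.42 for HIST2H2AA3, 1.33 for HIST2H2AA4, 1.30 for HIST2H2BE, 0.99 for HIST1H2BG, 0.63 for HIST1H2AE and 0.63 for HIST1H4K. HIST1H2BG and HIST1H2AE were below the floor on all DMSO arrays of both lines and on all OTX015 arrays of MDA-MB-231, so their 2 values are fitted numbers and not sizes of a measured difference.

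In MDA-MB-468 the response at 24 h exceeded that at 4 h in the test of the difference for 17 genes. The only H1 gene among them was HIST1H1C with 0.92. The H2A genes were HIST2H2AC with 1.26, HIST2H2AA4 with 1.09, HIST1H2AG with 0.68 and HIST1H2AE with 0.61. The H2B genes were HIST1H2BJ with 1.76, HIST1H2BC with 1.34, HIST1H2BG with 0.95, HIST2H2BE with 0.94, HIST1H2BK with 0.88, HIST1H2BD with 0.82 and HIST1H2BE with 0.63. The H3 genes were HIST1H3H with 1.09, HIST1H3G with 1.02 and HIST1H3F with 0.77, and the H4 genes were HIST1H4H with 1.50 and HIST2H4B with 0.79. Each time has 1 OTX015 array, so these differences rest on the 4 h and the 24 h array. HIST1H2AG, HIST1H2AE, HIST1H2BG and HIST1H2BE passed the filter only through OTX015 arrays.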

How the results depend on the processing

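No OTX015 response, difference of responses or baseline difference that passed its test reversed its direction under the alternatives run. The direction of the time comparison among arrays without drug, however, turned in MDA-MB-468. The direction of OTX015 responses that did not pass was not followed gene by gene. Among the 37 genes, 35 responses of MDA-MB-468 were positive with no background correction, against 33 without the 24 h DMSO array. Of 961 single-gene values under alternatives, 701 stayed on their side of the threshold and 260 lost the call, and of 288 counts and medians 242 stayed within their limits and 46 did not. The 17 genes higher in MDA-MB-468 were 0 with median scaling and 8 with OTX015 and DMSO arrays only, and ranged from 0 to 20 over left-out arrays and times. The 11 in MDA-MB-231 ranged from 6 to 12. The 7 genes with a larger response in MDA-MB-468 were 4 with no background correction, 0 with median scaling and 14 with DMSO and untreated arrays as the control, and ranged from 0 to 18 over left-out arrays and times. Calls that held without any single array numbered 2 of 17, 8 of 11 and 1 of 7. At 4 h, the 5 genes higher in MDA-MB-231 were 8 with no background correction, 8 in the deposited log2 table and 0 with median scaling, and the 13 at 8 h were 8 with median scaling. In MDA-MB-468, median scaling gave 12 genes higher at 4 h, 10 higher and 1 lower at 8 h and 0 lower at 24 h. Against the DMSO array of the same time alone, the median response was 0.58 at 8 h and 1.02 at 24 h in MDA-MB-468, and 0.23, 0.28 and 0.17 at 4, 8 and 24 h in MDA-MB-231. Among arrays without drug, median scaling gave 0 members higher and 7 lower at 8 h and 0 higher and 5 lower at 24 h in MDA-MB-468, in place of 2 higher and none lower at each time, and 0 lower at 24 h in MDA-MB-231. With median scaling the median log2 difference of all tested probes was -0.12 (MDA-MB-468) and 0.05 (MDA-MB-231), against -0.01 and -0.00 with quantile normalization. The cause was not tested. No paired analysis was possible because the replicate numbers stand for the times, which the fits already hold as a factor. Genes near the floor have only bounds, and 1 array per condition limits the precision. A filter on the arrays without drug was added after seeing the data.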
